A study of Mus musculus with 12 samples.

Results

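The 34 genes described here encode the thioredoxin, glutaredoxin, glutathione and peroxiredoxin systems, the superoxide dismutases and catalase, the transcription factor NRF2 with its inhibitor and some of its known targets, and the metallothionein and ferritin proteins that bind metal. They were taken from the expression tables by exact gene symbol, and all 34 of 34 were present among the 45703 genes of each table. They were read in 12 libraries of mouse CD4+ T cells on the C57BL/6 background, 3 in each of 4 groups. Over 3 days in culture, naive cells had received CD3 and CD28 stimulation and cytokines that drive either the Th17 fate, helper cells that make IL-17, or the Th1 fate, helper cells that make interferon-gamma. In each fate, wild-type cells were set beside cells labelled Slc2a3-fl/fl Cd4-cre. In these GLUT3-deficient cells a Cre recombinase under the Cd4 promoter, which is active from thymic development on and also in CD8 T cells, deletes Slc2a3, the gene of the glucose transporter GLUT3, so that the loss precedes the culture. The labels do not say whether the wild-type cells carried the floxed allele or Cre, nor whether replicates came from separate animals or cultures. The p-values therefore measure the spread between libraries, which may be technical.

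Cells remove hydrogen peroxide and repair oxidized protein thiols through a pair of parallel chains that both draw electrons from NADPH. In the first chain thioredoxin reductase reduces thioredoxin, which reduces peroxiredoxins, and in the second glutathione reductase keeps glutathione reduced for glutathione peroxidases, glutaredoxins and glutathione transferases. NRF2, held in check by KEAP1, drives many of these genes through the antioxidant response element, and activated T cells need glutathione to grow because their metabolism makes oxidants.

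The deposited values were TPM, in which reads are taken per base of exon and every library is brought to an equal total, so that levels can be compared between genes. Between 16596283 and 28496606 reads per library stood behind them. Slc2a3 itself measured 379, 109 and 44.6 TPM in the 3 wild-type Th17 libraries and 5.14, 18.7 and 3.30 TPM in the GLUT3-deficient ones, and 398, 95.6 and 64.7 against 6.79, 4.49 and 7.97 TPM in Th1. Every GLUT3-deficient library was below every wild-type library of its lineage, and wild-type replicate 1 was the highest in both lineages. Defining genes of the labelled fates were present: Il17f stood at 568 to 1076 TPM in wild-type Th17 and at 0.307 to 0.886 TPM in wild-type Th1, whereas Ifng stood at 1.99 to 4.64 TPM in wild-type Th17 and at 487 to 1115 TPM in wild-type Th1. Fate genes also moved with genotype. Of 8 genes that mark Th17 or Th1 cells, 1 was called higher in Th17, and in Th1 5 were called higher and 3 lower, with summed levels of 694 to 1206 TPM in wild-type against 588 to 834 TPM in GLUT3-deficient Th17 and of 802 to 1368 against 7212 to 9139 TPM in Th1. Ifng was called higher in both, by 4.20 ± 0.38 on the log2 scale in Th17 (SE; limma adjusted p = 0.00211) and 3.43 ± 0.27 in Th1 (SE; limma adjusted p = 9.47e-05). GLUT3-deficient Th17 replicate 2 stood apart from the other libraries, with a median absolute log2 difference from the rest of its group of 0.626 against 0.168 to 0.433 for the others, and the 34 genes made up 0.906% of its TPM against 1.14% to 1.43% elsewhere. In bulk samples fewer cells of a type and less RNA per cell cannot be told apart.

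Markers of other cells moved with genotype. The summed TPM of 4 gamma delta T cell receptor genes was 17.3 to 20.1 in wild-type and 165 to 255 in GLUT3-deficient Th17 libraries, and 13.7 to 33.3 against 171 to 268 in Th1. The 4 of 4 genes were called higher in each lineage. The 10 myeloid markers summed to 12.4 to 14.6 against 47.1 to 68.2 TPM in Th17, with 4 of 6 tested genes called higher, and to 10.9 to 14.0 against 25.2 to 46.1 TPM in Th1, with 2 of 3 called higher. Those 2 were Fcer1g and Tyrobp, while Cd68 was not called in Th1 (limma adjusted p = 0.149). The other myeloid markers, among them Lyz2, Cd14 and Itgam, were too low to be tested in Th1. Adgre1, S100a8 and S100a9 were at 0 in every wild-type Th17 library, and Csf1r, Adgre1 and S100a9 in every wild-type Th1 library. S100a8 and S100a9 were also at 0 in every GLUT3-deficient Th1 library. None of the 10 was at 0 in every GLUT3-deficient Th17 library. The 8 CD8 and natural killer markers summed to 49.1 to 64.2 against 90.7 to 108 TPM in Th17, with 2 of 6 tested genes called higher, and to 62.1 to 78.5 against 195 to 283 TPM in Th1, with 4 called higher and 2 lower of 6. The 2 lower in Th1 were the CD8 genes Cd8a (-0.90 ± 0.19, SE) and Cd8b1 (-0.76 ± 0.16, SE). Klrk1, Klrc1, Klrd1 and Eomes were the 4 higher. The 10 red cell and platelet markers summed to 9.48 to 18.0 against 46.7 to 125 TPM in Th17 and to 12.2 to 25.5 against 60.5 to 201 TPM in Th1, with 2 of 6 tested genes called higher in each. The summed B cell markers overlapped between the genotypes in both lineages, at 114 to 153 against 132 to 198 TPM in Th17, with 1 of 5 tested genes called higher, and 88.1 to 112 against 68.4 to 475 TPM in Th1, with 0 of 5 called by limma and 2 at an unadjusted p under 0.05. The 18 immediate early genes, which respond to stimulation and to handling, summed to 1535 to 1746 against 3021 to 3542 TPM in Th17 and to 1138 to 1524 against 3345 to 3987 TPM in Th1. The 8 CD4 T cell genes summed to 7535 to 8939 TPM in wild-type against 8689 to 10917 TPM in GLUT3-deficient Th17, with 0 called by limma and 1 at an unadjusted p under 0.05, and to 7114 to 8058 against 10007 to 10750 TPM in Th1, with 6 of 8 called higher. The part of these markers and of the fate genes in the results below was not tested.

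The redox genes spanned more than 3 orders of magnitude. The ferritin light chain Ftl1 was the most abundant by mean level, at 2841 ± 515 TPM (SD, n = 3) in wild-type Th17 and 2259 ± 254 TPM (SD, n = 3) in wild-type Th1, followed in wild-type Th17 by the metallothionein Mt1 and the ferritin heavy chain Fth1. The peroxiredoxins Prdx1 and Prdx2, the glutathione peroxidase Gpx1 and cytosolic thioredoxin Txn1 followed, with values in wild-type libraries from 495 TPM for Prdx1 to 1468 TPM for Gpx1. At the low end stood Nqo1, Srxn1, Glrx2 and Gclm, each under 12 TPM in every wild-type library. The catalytic subunit of glutathione synthesis, Gclc, stood at 14.8 to 28.4 TPM and its modifier Gclm at 5.63 to 11.97 TPM in wild-type libraries.

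**Figure D1:**
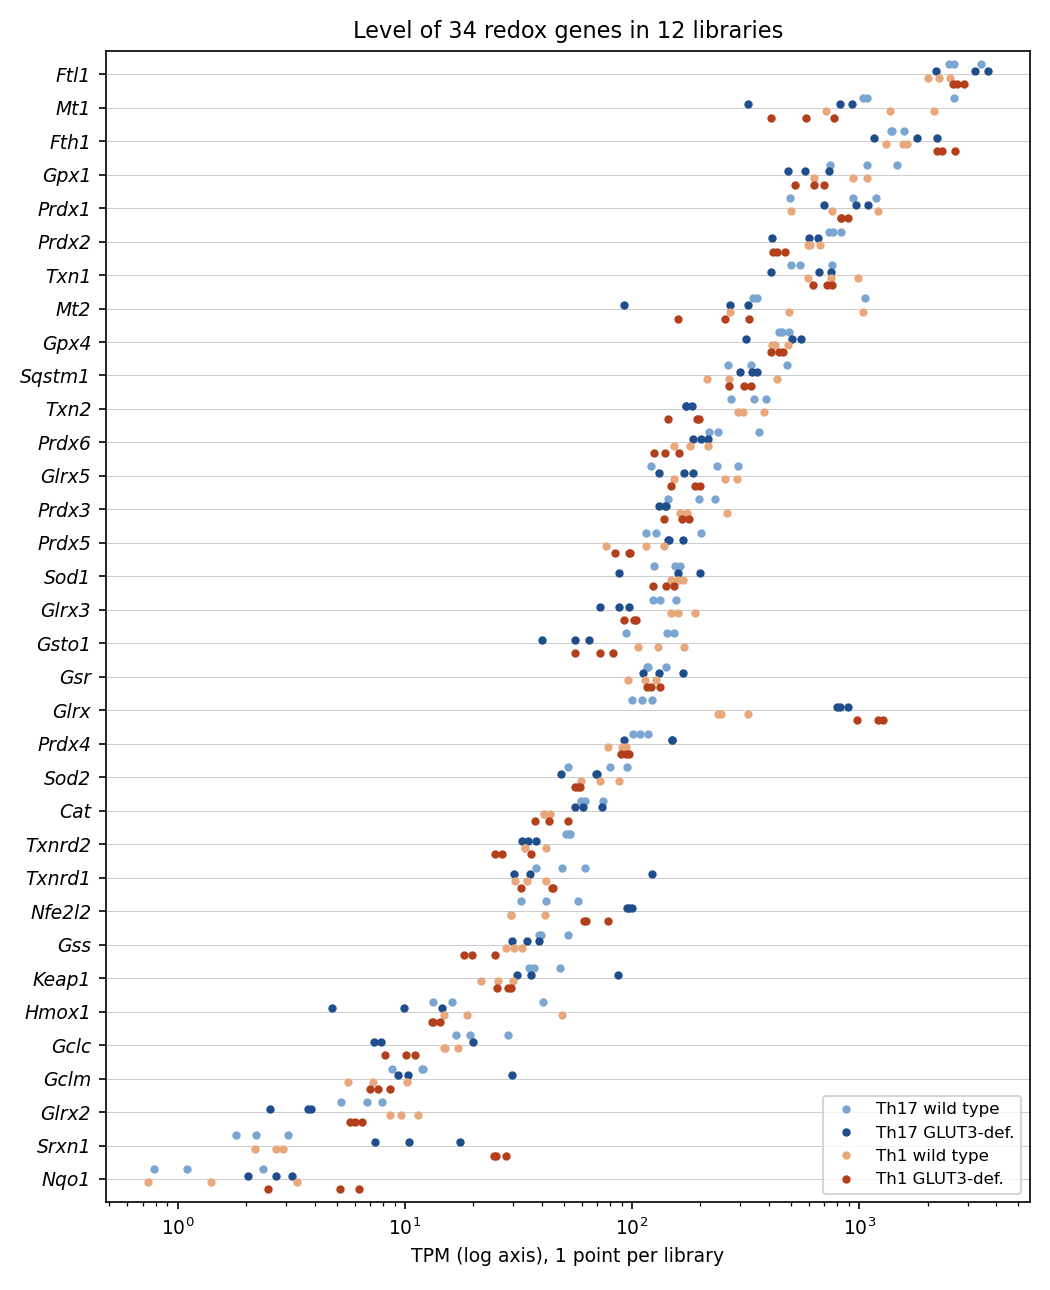
TPM of the 34 redox genes on a log axis, 1 point per library and 1 colour per group of 3 libraries, ordered by mean level in wild-type Th17. Glrx is the gene whose GLUT3-deficient points (801 to 1275 TPM) lie farthest to the right of its wild-type points (100.1 to 325 TPM) among the abundant genes, and Srxn1 does the same at the low end.

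To ask which redox genes differ with GLUT3 loss, each lineage was tested on its own 6 libraries with limma on log2(TPM + 1), a two-sided test moderated over all genes, with Benjamini-Hochberg adjustment and a threshold of 0.05. The 34 of 34 genes passed the filter of 1 TPM in at least 3 libraries of each fit. In Th17, 5 of 34 were called: the glutaredoxin Glrx, the sulfiredoxin Srxn1 and the NRF2 gene Nfe2l2 were higher, and mitochondrial thioredoxin Txn2 and the omega-class glutathione transferase Gsto1 were lower. Over all 13823 genes tested in Th17, 7.30% were called. In Th1, 12 of 34 were called, against 31.3% of all 13487 genes tested. The same 5 genes were called in the same directions, Fth1 was also higher, and Mt1, Glrx3, Gclc, Glrx2, Gss and Prdx2 were lower. The Th1 share of redox genes was thus near the background. In both lineages 22 of the 34 genes were not called.

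By direction, Th17 had 3 called higher against 4.60% of all genes and 2 called lower against 2.70%, and Th1 had 4 called higher against 17.6% and 8 called lower against 13.7%. The median log2 difference of the 34 genes was -0.07 in Th17 and -0.20 in Th1, beside 0.04 and 0.03 over all genes tested. In Th17, 12 of 34 genes had all 3 GLUT3-deficient libraries below all 3 wild-type ones, against 18.2% of all genes, and 3 had them all above, against 18.5%. In Th1 the counts were 9 below, against 20.8%, and 5 above, against 26.3%. Among the redox genes without overlap, more were thus lower than higher in each lineage, while the largest differences were upwards. In Th1 the 9 of 34 below lay near the 20.8% of all genes.

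**Figure D2:**
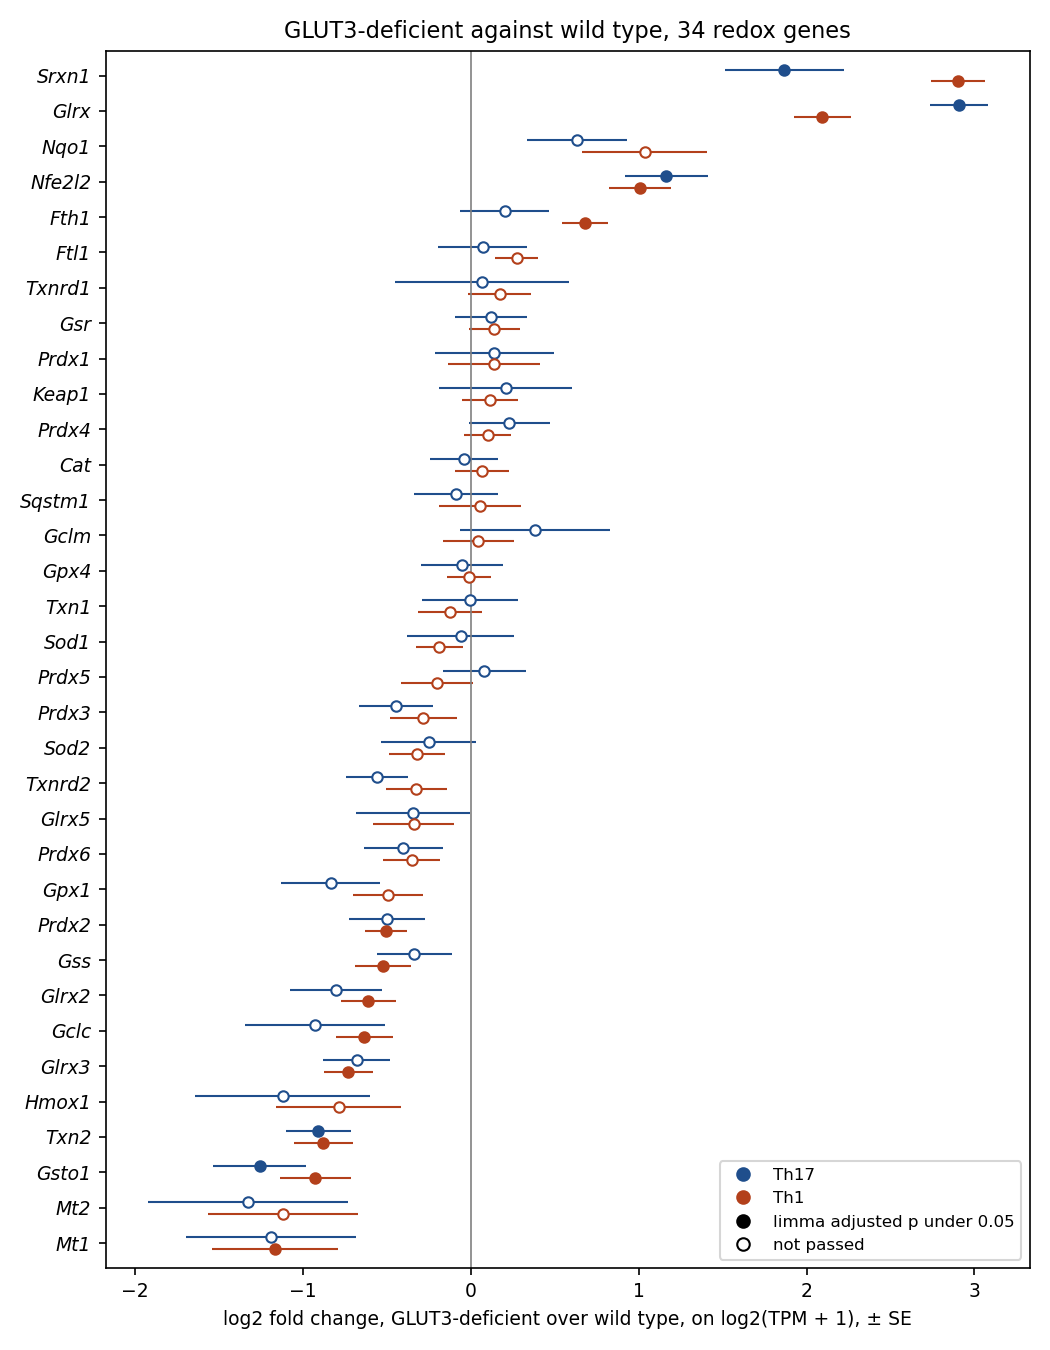
Difference between GLUT3-deficient and wild-type cells for the 34 redox genes, as log2 fold change on log2(TPM + 1) with its standard error, in Th17 (blue, upper) and Th1 (red, lower). Filled points passed the limma adjusted p threshold of 0.05: 5 genes in Th17 and 12 in Th1, with Srxn1 and Glrx at the far right in both.

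Among the glutaredoxins, small enzymes that use glutathione to remove glutathione from protein thiols or to carry iron-sulfur clusters, the cytosolic Glrx differed most. Glrx measured 111, 122 and 100.1 TPM in wild-type Th17 libraries and 824, 801 and 891 TPM in GLUT3-deficient ones, and 239, 325 and 247 against 1209, 1275 and 974 TPM in Th1. The lowest GLUT3-deficient library of either lineage lay far above the highest wild-type one, and the ratio of means was 7.55 in Th17 and 4.27 in Th1. Glrx rose by 2.91 ± 0.17 on the log2 scale in Th17 (SE, n = 3 and 3; limma adjusted p = 0.000711) and by 2.09 ± 0.17 in Th1 (SE, n = 3 and 3; limma adjusted p = 9.77e-05). By p it ranked 8th of 13823 genes in Th17 and 105th of 13487 in Th1, and it was called under all 12 alternatives of each lineage, with log2 differences from 2.84 to 2.98 and from 2.01 to 2.23.

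None of the other 3 glutaredoxins was called higher. Glrx3, a cytosolic and nuclear protein that handles iron-sulfur clusters, measured 124, 133 and 156 TPM in wild-type and 87.7, 72.6 and 96.9 TPM in GLUT3-deficient Th17 libraries, and 159.6, 149 and 189 against 91.8, 104 and 102 TPM in Th1. The genotypes did not overlap in either lineage, and Glrx3 fell in Th1 by 0.73 ± 0.15 on the log2 scale (SE; limma adjusted p = 0.00565), while in Th17 the difference of -0.68 ± 0.20 had a limma adjusted p of 0.0888. Mitochondrial Glrx2 was scarce, at 5.23, 6.78 and 7.96 against 3.76, 2.55 and 3.84 TPM in Th17 and 9.57, 8.57 and 11.4 against 6.00, 6.45 and 5.74 TPM in Th1, again without overlap. It fell in Th1 by 0.61 ± 0.16 (SE; limma adjusted p = 0.0218), a call lost without wild-type replicate 3 or any 1 of the GLUT3-deficient replicates 1, 2 and 3 (limma adjusted p from 0.0537 to 0.0822) and with all 12 libraries in the model (0.0705). In Th17 its limma adjusted p was 0.127. With all 12 libraries in the model Glrx2 and Glrx3 were called lower in Th17 (limma adjusted p of 0.0219 and 0.0134). Glrx5, the mitochondrial glutaredoxin of iron-sulfur cluster assembly, overlapped between genotypes, with differences of -0.34 ± 0.34 in Th17 and -0.34 ± 0.24 in Th1. It was called lower in Th1 without wild-type replicate 1 (-0.61; limma adjusted p = 0.0172).

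Sulfiredoxin, encoded by Srxn1, repairs peroxiredoxins that peroxide has over-oxidized, and is a known NRF2 and AP-1 target. Srxn1 measured 1.80, 3.05 and 2.21 TPM in wild-type Th17 and 10.4, 17.5 and 7.40 TPM in GLUT3-deficient Th17 libraries, and 2.18, 2.72 and 2.92 against 27.8, 25.2 and 24.7 TPM in Th1. The genotypes were apart in both lineages, tightly so in Th1, while the GLUT3-deficient Th17 libraries spread widely with replicate 2 on top. The ratio of means was 5.00 in Th17 and 9.94 in Th1. Srxn1 rose by 1.87 ± 0.36 (SE; limma adjusted p = 0.0255) in Th17 and by 2.90 ± 0.16 (SE; limma adjusted p = 2.92e-05) in Th1, where it ranked 13th of 13487 genes by p and was called under all 12 alternatives. The Th17 call was lost without any 1 of wild-type replicates 1, 2 and 3 or GLUT3-deficient replicate 1 (limma adjusted p from 0.0911 to 0.125) and held without GLUT3-deficient replicate 2. With no filter on low values the Th17 limma adjusted p was 0.0607, and with a pseudocount of 5 the Th17 log2 difference was 1.15; the log2 scale with a pseudocount understates differences of genes as low as Srxn1.

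**Figure D3:**
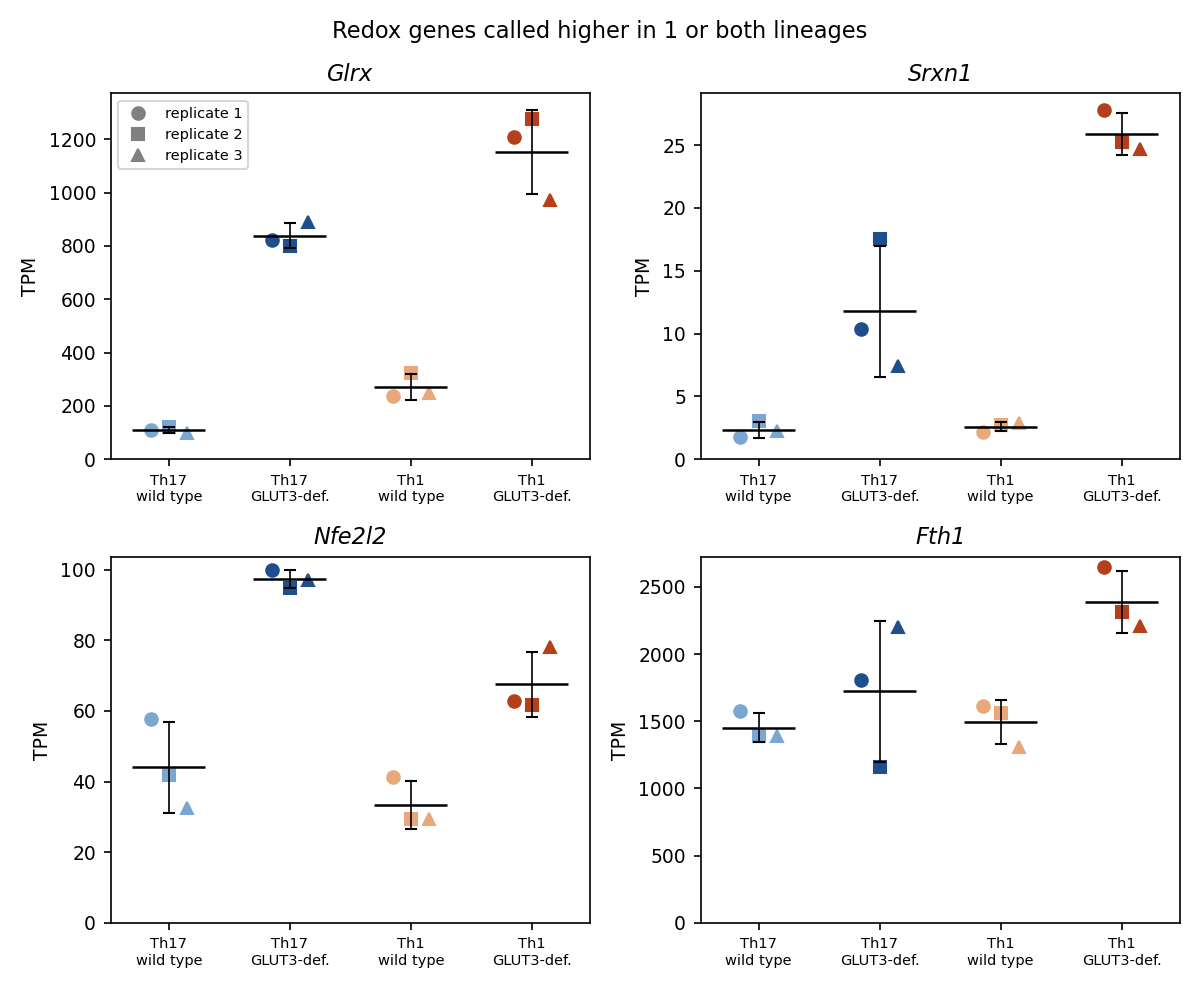
TPM of the 4 redox genes called higher in at least 1 lineage, by group, with 1 symbol per replicate and lines for the mean and SD of 3 libraries. Glrx, Srxn1 and Nfe2l2 separate the genotypes in both lineages, whereas Fth1 does so in Th1 and overlaps in Th17, where GLUT3-deficient replicate 2 lies at 1160 TPM.

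None of the 6 peroxiredoxins, the peroxidases that sulfiredoxin and thioredoxin serve, was called higher. Prdx2, a cytosolic peroxiredoxin, measured 733, 769 and 827 against 604, 413 and 662 TPM in Th17 and 594, 609 and 673 against 433, 419 and 471 TPM in Th1. All its GLUT3-deficient libraries were below all wild-type ones in both lineages, and it fell in Th1 by 0.50 ± 0.13 (SE; limma adjusted p = 0.0159), a call lost without GLUT3-deficient replicate 1 or 2 (limma adjusted p of 0.0743 and 0.0930) and with all 12 libraries in the model (0.0663); in Th17 the limma adjusted p was 0.218. Prdx1, the other abundant cytosolic member, overlapped widely, at 495, 935 and 1191 against 968, 697 and 1095 TPM in Th17, with differences of 0.14 ± 0.35 and 0.14 ± 0.27 in Th17 and Th1. The mitochondrial Prdx3 and Prdx5, the secretory-pathway Prdx4 and the 1-cysteine Prdx6 had differences between -0.45 ± 0.22 for Prdx3 and 0.23 ± 0.24 for Prdx4, both in Th17, and none was called in either lineage. Prdx1 and Prdx5 overlap transcripts of the other strand, AV051173 (up to 112 TPM) and Trmt112 (up to 165 TPM), and these libraries do not mark the strand, so their reads cannot be told apart.

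In the thioredoxin chain the mitochondrial thioredoxin Txn2 fell in both lineages while cytosolic Txn1 did not pass the test in either. Txn2 measured 273, 345 and 389.7 TPM in wild-type and 173, 184 and 173 TPM in GLUT3-deficient Th17 libraries, and 291, 307 and 383 against 144, 193 and 198 TPM in Th1. No GLUT3-deficient library reached a wild-type one, and the Th17 GLUT3-deficient libraries lay close together. Txn2 fell by 0.91 ± 0.19 on the log2 scale in Th17 (SE; limma adjusted p = 0.0360) and by 0.88 ± 0.18 in Th1 (SE; limma adjusted p = 0.00565). The Th1 call held under all 12 alternatives, and the Th17 call was lost when wild-type replicate 2, wild-type replicate 3, GLUT3-deficient replicate 1 or GLUT3-deficient replicate 3 was left out (limma adjusted p from 0.111 to 0.170) and with no filter on low values (0.0583). Txn1 measured 499, 546 and 757 against 666, 409 and 751 TPM in Th17 and 594, 754 and 991 against 757, 724 and 628 TPM in Th1. Its groups overlapped in both lineages, with differences of -0.0040 ± 0.29 and -0.12 ± 0.19.

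The thioredoxin reductases were not called in either lineage. Mitochondrial Txnrd2, which reduces the Txn2 protein, had Th17 libraries without overlap, at 51.0, 53.2 and 52.6 against 32.9, 37.7 and 34.9 TPM, and a difference of -0.56 ± 0.18 (SE; limma adjusted p = 0.117), which was called with all 12 libraries in the model (limma adjusted p = 0.0403). Cytosolic Txnrd1, a known NRF2 target, measured 37.7, 62.1 and 49.4 against 35.5, 122 and 30.3 TPM in Th17. GLUT3-deficient replicate 2 alone lay above the wild-type range and both others lay below it, so the difference was 0.07 ± 0.52 with all libraries and -0.56 without replicate 2 (limma adjusted p of 0.951 and 0.154).

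Of the genes that make and recycle glutathione, Gclc encodes the catalytic subunit of the rate-limiting ligase, Gclm its modifier, Gss the synthetase of the last step and Gsr the reductase. Gclc measured 14.9, 14.8 and 17.2 against 8.16, 10.1 and 11.1 TPM in Th1 and 16.8, 28.4 and 19.3 against 7.84, 20.0 and 7.34 TPM in Th17. In Th1 the genotypes did not overlap and Gclc fell by 0.63 ± 0.17 (SE; limma adjusted p = 0.0207), a call that depended on wild-type replicate 3 and on GLUT3-deficient replicates 1 and 2, each left out in turn (limma adjusted p from 0.0518 to 0.102), and that was also lost with all 12 libraries in the model (limma adjusted p = 0.223). In Th17 only GLUT3-deficient replicate 2 reached the wild-type range, and the difference of -0.93 ± 0.42 (limma adjusted p = 0.219) became -1.36 without that library (limma adjusted p = 0.0127). Gss fell in Th1 by 0.52 ± 0.17 (SE; limma adjusted p = 0.0435), from 32.9, 27.8 and 30.3 to 18.2, 19.7 and 24.9 TPM with no overlap, and lost its call without any 1 of the 3 wild-type libraries or without GLUT3-deficient replicate 1 or 2 (limma adjusted p from 0.0542 to 0.172), with no filter on low values (0.0649) and with all 12 libraries in the model (0.0801). In Th17 Gss measured 52.4, 39.9 and 38.9 against 34.6, 38.7 and 29.5 TPM, without overlap. The Th17 difference of Gss was -0.34 ± 0.22 (limma adjusted p = 0.387). Gsr measured 112 to 168 TPM in Th17 and 95.8 to 133 TPM in Th1 and differed by 0.12 ± 0.21 and 0.14 ± 0.15. Gclm was listed at 5.63 to 11.97 TPM in every library other than GLUT3-deficient Th17 replicate 2, which stood at 29.7 TPM. Its span holds the pseudogene Gm6061 (up to 1762 TPM), so reads of Gclm are uncertain, and it was not called.

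Among the enzymes that spend glutathione, Gsto1 fell in both lineages. Gsto1 measured 94.0, 142 and 153 TPM in wild-type and 55.8, 40.1 and 64.8 TPM in GLUT3-deficient Th17 libraries, and 106, 129.7 and 169 against 56.0, 82.4 and 72.2 TPM in Th1. The genotypes did not overlap, and wild-type replicate 1 was the lowest wild-type library in both lineages. Gsto1 fell by 1.26 ± 0.28 in Th17 (SE; limma adjusted p = 0.0394) and by 0.93 ± 0.21 in Th1 (SE; limma adjusted p = 0.0103). In Th1 it was called under all 12 alternatives. Left out singly, wild-type replicates 2 and 3 and GLUT3-deficient replicates 1 and 3 each ended the Th17 call (limma adjusted p from 0.0687 to 0.176), which was also lost with no filter, median-of-ratios scaling or voom on reads (limma adjusted p of 0.0754, 0.0511 and 0.0510).

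The glutathione peroxidases remove peroxides with glutathione. Gpx1, the abundant cytosolic and mitochondrial form, measured 740.0, 1082 and 1468 against 580.1, 486 and 736 TPM in Th17 and 634, 937 and 1084 against 521, 700.2 and 633 TPM in Th1. Its Th17 libraries did not overlap, but the wild-type replicate 1 lay just above the highest GLUT3-deficient library, and the difference of -0.83 ± 0.29 was not called (limma adjusted p = 0.138), other than with all 12 libraries in the model (limma adjusted p = 0.0496). In Th1 the difference was -0.49 ± 0.21 (limma adjusted p = 0.107), and it was called without wild-type replicate 1 (-0.72; limma adjusted p = 0.00694). Gpx4, which protects membrane lipids and limits ferroptosis, stood at 318 to 556 TPM in Th17 and 409 to 486 TPM in Th1, with differences of -0.05 ± 0.24 and -0.01 ± 0.13. Its pseudogenes Gpx4-ps2 (up to 226 TPM) and Gpx4-ps1 (up to 24.3 TPM) were listed as genes of their own, and reads may be split between them.

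**Figure D4:**
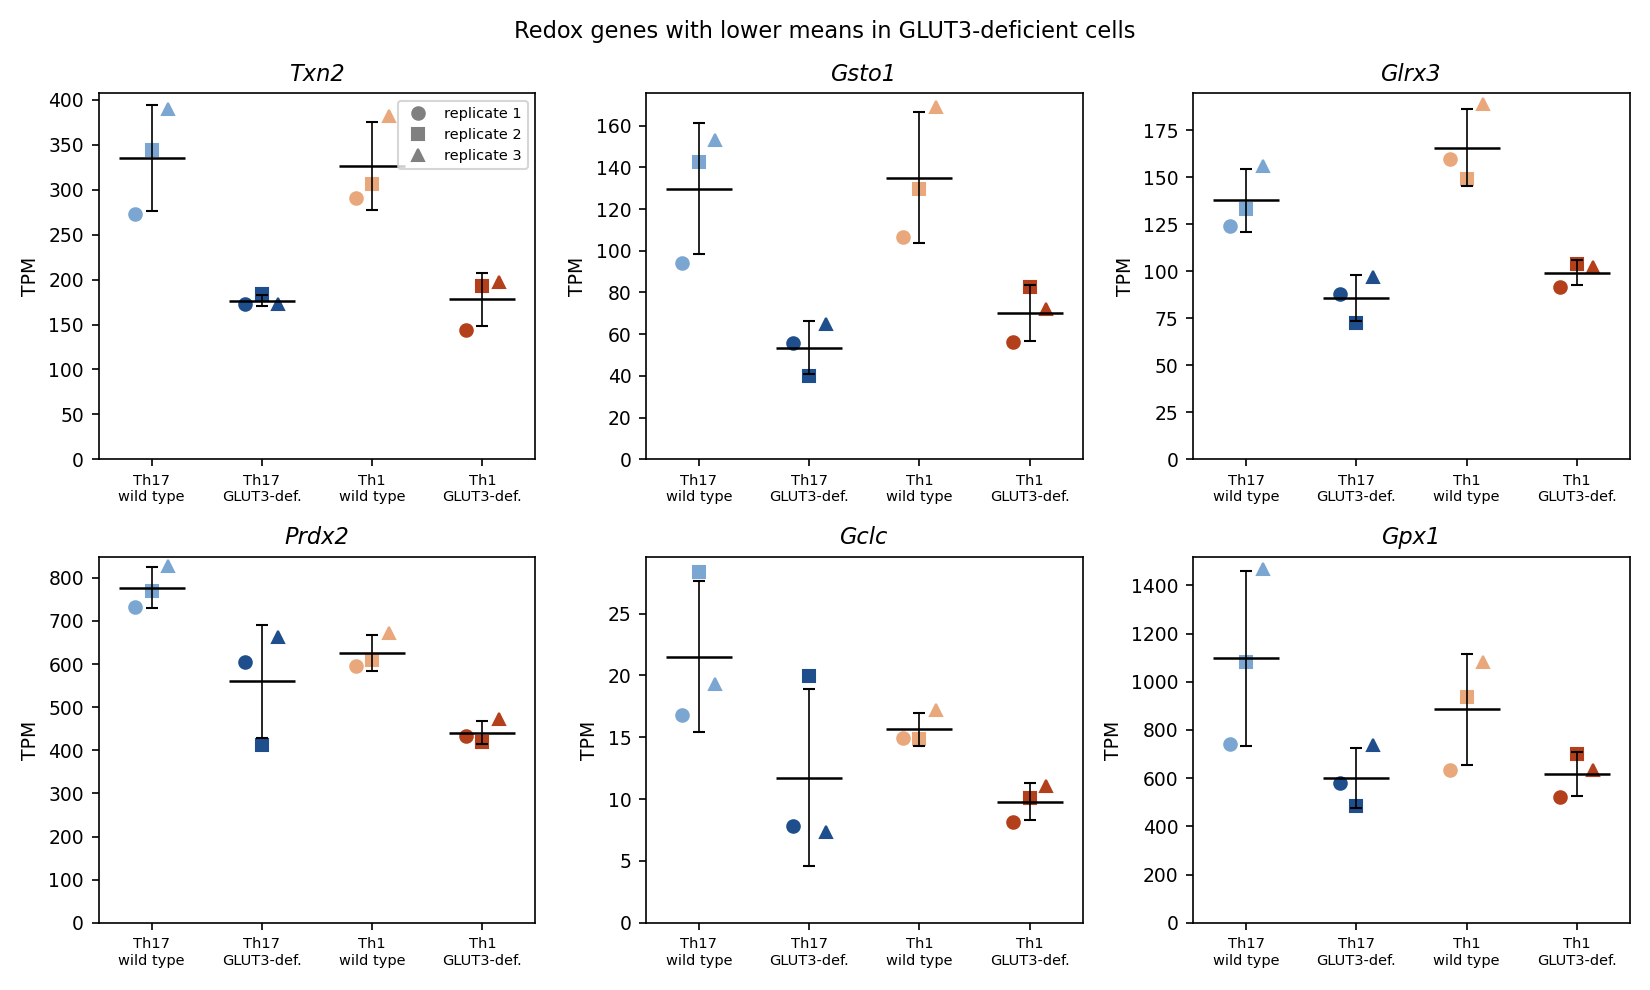
TPM by group of 6 redox genes with lower means in GLUT3-deficient cells, with 1 symbol per replicate and lines for the mean and SD of 3 libraries. Txn2 and Gsto1 were called lower in both lineages, Glrx3, Prdx2 and Gclc in Th1, and Gpx1 in neither.

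The enzymes that act directly on superoxide and hydrogen peroxide were called in neither lineage. Cytosolic Sod1 measured 163, 125 and 154 against 159, 87.8 and 199 TPM in Th17 and 159.5, 148 and 167 against 153, 141 and 124 TPM in Th1, overlapping in both. Mitochondrial Sod2 differed by -0.25 ± 0.28 in Th17 and -0.32 ± 0.17 in Th1, and passed the test only for Th1 without wild-type replicate 1 (-0.46; limma adjusted p = 0.0369). Catalase, Cat, differed by -0.04 ± 0.20 and 0.07 ± 0.16.

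In the NRF2 axis the gene of the factor itself, Nfe2l2, rose in both lineages. Nfe2l2 measured 57.7, 41.7 and 32.5 TPM in wild-type and 99.9, 94.7 and 97.2 TPM in GLUT3-deficient Th17 libraries, and 41.3, 29.4 and 29.3 against 62.7, 61.7 and 78.1 TPM in Th1. The genotypes did not overlap, and wild-type replicate 1 was the highest wild-type library in both lineages. Nfe2l2 rose by 1.17 ± 0.24 in Th17 (SE; limma adjusted p = 0.0347) and by 1.01 ± 0.18 in Th1 (SE; limma adjusted p = 0.00375). The Th1 call held under all 12 alternatives. The Th17 call was again lost when wild-type replicate 2, wild-type replicate 3, GLUT3-deficient replicate 1 or GLUT3-deficient replicate 3 was left out (limma adjusted p from 0.102 to 0.155), with no filter (0.0598) and with median-of-ratios scaling (0.0543).

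The genes of its regulators and of further known targets did not follow together. Keap1, whose protein sends NRF2 to degradation, overlapped in both lineages, at 35.2, 48.1 and 36.9 against 35.9, 86.7 and 31.1 TPM in Th17, with GLUT3-deficient replicate 2 alone above the wild-type range. Without that library its Th17 difference went from 0.21 ± 0.40 to -0.24, and neither was called. Sqstm1, the autophagy adaptor p62 that binds KEAP1, differed by -0.09 ± 0.25 and 0.06 ± 0.24. The quinone reductase Nqo1, a classical NRF2 target, was near the filter, at 0.783, 1.09 and 2.38 against 2.70, 3.19 and 2.04 TPM in Th17 and 0.737, 1.40 and 3.35 against 2.48, 6.28 and 5.17 TPM in Th1. Wild-type replicate 3 overlapped the GLUT3-deficient libraries in both lineages. The Th1 difference of 1.04 ± 0.37 had a limma adjusted p of 0.0626, and it was called without wild-type replicate 3 (limma adjusted p = 0.0174) or GLUT3-deficient replicate 1 (limma adjusted p = 0.0338).

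Promoter windows are printed for Srxn1, Glrx and Nfe2l2, which rose in both lineages, and for Gsto1, which fell in both. Txn2, which also fell in both, is not printed. The windows run from 250 bases before to 50 bases after the gene start. They are given 5′ to 3′ on the strand of the gene, as RefSeq gives them in GRCm38.p6. Capitals mark matches on either strand to the antioxidant core TGACNNNGC or the AP-1 letters TGACTCA, whose reverse complement is TGAGTCA. The Srxn1 window is chr2:152105274-152105573 on the plus strand, that of Glrx chr13:75839635-75839934 on the plus strand, that of Nfe2l2 chr2:75704614-75704913 on the minus strand, and that of Gsto1 chr19:47854723-47855022 on the plus strand.
Srxn1: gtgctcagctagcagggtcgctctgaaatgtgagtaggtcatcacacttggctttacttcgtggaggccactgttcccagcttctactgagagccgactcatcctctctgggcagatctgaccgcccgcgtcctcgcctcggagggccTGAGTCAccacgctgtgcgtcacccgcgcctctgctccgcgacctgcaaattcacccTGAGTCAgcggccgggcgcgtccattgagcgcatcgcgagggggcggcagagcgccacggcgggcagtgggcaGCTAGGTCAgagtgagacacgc
Glrx: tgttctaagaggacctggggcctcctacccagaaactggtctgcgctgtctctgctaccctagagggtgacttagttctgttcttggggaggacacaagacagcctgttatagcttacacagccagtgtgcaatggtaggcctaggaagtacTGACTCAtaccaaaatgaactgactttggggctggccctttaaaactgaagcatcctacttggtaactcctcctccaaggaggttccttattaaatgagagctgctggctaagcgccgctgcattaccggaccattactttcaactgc
Nfe2l2: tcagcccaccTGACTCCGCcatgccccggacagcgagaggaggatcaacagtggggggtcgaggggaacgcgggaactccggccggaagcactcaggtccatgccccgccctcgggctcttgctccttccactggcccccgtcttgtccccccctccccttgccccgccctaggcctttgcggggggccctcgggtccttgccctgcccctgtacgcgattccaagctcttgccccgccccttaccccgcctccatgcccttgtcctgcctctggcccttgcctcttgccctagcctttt
Gsto1: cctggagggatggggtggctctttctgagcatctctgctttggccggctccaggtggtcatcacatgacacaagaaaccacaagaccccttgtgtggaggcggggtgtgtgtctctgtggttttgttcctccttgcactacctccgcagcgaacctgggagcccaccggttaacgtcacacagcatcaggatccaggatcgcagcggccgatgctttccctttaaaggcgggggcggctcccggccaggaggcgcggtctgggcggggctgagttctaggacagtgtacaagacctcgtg
Counted from the gene start, the Srxn1 window held AP-1 letters at -102 and -45 and an antioxidant core at 28, the Glrx window AP-1 letters at -98, and the Nfe2l2 window an antioxidant core at -240, while Gsto1 held neither. Of the 34 genes, 30 had a window in the table, and for each the window nearest the deposited gene start was used. Shares over all windows counted every window, with no such choice by gene. The antioxidant core was in 6 of the 30 windows (Gclm, Prdx1, Sod1, Srxn1, Mt2 and Nfe2l2) and in 12.4% of all 32851 windows, and the AP-1 letters in 4 (Glrx, Prdx1, Srxn1 and Mt2) and in 5.2%. In the Mt2 and Prdx1 windows a single stretch of letters held both. A match is a description of letters and not a site of binding, and Prdx1 and Sod1, which hold the antioxidant core, were not called in either lineage.

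The metallothioneins, small cysteine-rich proteins that bind zinc and copper and take up oxidants, had lower means in GLUT3-deficient cells and a wide spread between libraries. Mt1 measured 2609.9, 1041 and 1083 TPM in wild-type and 927, 323 and 821 TPM in GLUT3-deficient Th17 libraries, and 2128, 1370.5 and 714 against 773, 407 and 585 TPM in Th1. Wild-type replicate 1 was the highest library in both lineages, the Th17 groups did not overlap, and the Th1 groups did. Mt1 fell in Th1 by 1.16 ± 0.38 (SE; limma adjusted p = 0.0440), a call lost when 1 of 4 libraries was left out, which were the wild-type replicates 1 and 2 and the GLUT3-deficient replicates 2 and 3 (limma adjusted p from 0.0786 to 0.121). It was also lost with no filter on low values and with all 12 libraries in the model (limma adjusted p of 0.142 and 0.137). In Th17 the difference of -1.19 ± 0.51 was not called (limma adjusted p = 0.200), and it was called with the replicate number as a block (limma adjusted p = 0.0437). Mt2, at 1062, 342 and 355 against 323, 92.4 and 271 TPM in Th17 and 1037, 492 and 270.4 against 328, 159 and 256 TPM in Th1, had the same order of libraries as Mt1 within each wild-type group. Its difference of -1.33 ± 0.60 in Th17 was called only with the replicate block (limma adjusted p of 0.219 without and 0.0380 with it). In Th1 the difference was -1.12 ± 0.45 (limma adjusted p = 0.0877), and it was called without wild-type replicate 3 (limma adjusted p = 0.0183).

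Both metallothionein genes lie side by side on chromosome 8, and their windows are shown with metal-responsive letters marked. The Mt1 window is chr8:94178839-94179138 and the Mt2 window chr8:94172368-94172667, both on the plus strand of GRCm38.p6, from RefSeq, 5′ to 3′. Capitals mark matches on either strand to the core letters TGCACNC or TGCGCNC of the metal response element, which the zinc-sensing factor MTF1 binds.
Mt1: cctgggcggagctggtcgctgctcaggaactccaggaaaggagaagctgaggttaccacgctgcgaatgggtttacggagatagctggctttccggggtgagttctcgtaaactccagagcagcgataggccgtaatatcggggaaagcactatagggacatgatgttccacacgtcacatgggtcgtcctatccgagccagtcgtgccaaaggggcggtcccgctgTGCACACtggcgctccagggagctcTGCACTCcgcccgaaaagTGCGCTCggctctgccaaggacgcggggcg
Mt2: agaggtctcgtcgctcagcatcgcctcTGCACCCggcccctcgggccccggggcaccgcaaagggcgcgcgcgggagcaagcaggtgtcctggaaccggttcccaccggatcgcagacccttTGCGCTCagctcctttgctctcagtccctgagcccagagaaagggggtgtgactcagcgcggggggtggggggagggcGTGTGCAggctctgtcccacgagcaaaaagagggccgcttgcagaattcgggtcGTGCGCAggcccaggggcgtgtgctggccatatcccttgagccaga
The Mt1 window held 3 matches, at -23, 2 and 20 from the start, and the Mt2 window 4, at -223, -128, -50 and 4. The start used for the Mt1 window lies 206 bases downstream of the gene start in the deposited tables. Most of the Mt1 window, with its 3 matches, thus lies inside the gene as deposited. Over the 30 windows of the redox genes 8 held such a match (Glrx, Glrx3, Txnrd2, Gclm, Prdx4, Srxn1, Mt1 and Mt2), against 25.7% of all windows. The Gclm window held matches at -138, -72 and 27, and Gclm was not called in either lineage.

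Hmox1, the heme oxygenase that frees iron from heme, also had its highest wild-type library in replicate 1. It measured 40.6, 16.0 and 13.3 against 9.90, 14.6 and 4.79 TPM in Th17 and 49.2, 18.8 and 14.9 against 13.3, 13.1 and 14.2 TPM in Th1. Replicates 2 and 3 of each wild type lay close to the GLUT3-deficient libraries or among them. The differences of -1.12 ± 0.52 and -0.79 ± 0.37 were not called (limma adjusted p of 0.231 and 0.139), other than in Th1 without wild-type replicate 3 (limma adjusted p = 0.0489).

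Ferritin stores iron in a shell of heavy and light chains. The heavy chain Fth1, which carries the iron-oxidizing site, measured 1616, 1558 and 1308 TPM in wild-type and 2648, 2316 and 2205 TPM in GLUT3-deficient Th1 libraries, with no overlap. Fth1 rose in Th1 by 0.68 ± 0.14 on the log2 scale (SE; limma adjusted p = 0.00583), under all 12 alternatives. In Th17 it measured 1574, 1387 and 1389 against 1805, 1160.1 and 2201 TPM. GLUT3-deficient replicate 2 was the lowest of those 6 libraries and both other GLUT3-deficient libraries were the highest, so that the difference was 0.20 ± 0.27 with and 0.46 without it (limma adjusted p of 0.675 and 0.100). The light chain Ftl1 measured 2519, 2248 and 2011 against 2579, 2904 and 2682 TPM in Th1, without overlap but with a limma adjusted p of 0.142, and was called without wild-type replicate 1 (0.35; limma adjusted p = 0.0379). Its pseudogene Ftl1-ps1 was listed at up to 772 TPM, so reads of Ftl1 may be shared with it.

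Single libraries marked several of these genes. GLUT3-deficient Th17 replicate 2 was the highest of its group for 13 of the 34 genes and the lowest for 20, against 59.1% and 32.9% of all genes tested. Among the 13 were Txnrd1, Gclc, Gclm and Keap1, and without this library 6 of 34 genes were called in Th17, Gclc being the one gained, while Glrx, Srxn1, Nfe2l2, Txn2 and Gsto1 were called as before. Wild-type replicate 1 was the highest wild-type library in both lineages for 10 genes (Gss, Prdx5, Prdx6, Hmox1, Mt1, Mt2, Nfe2l2, Fth1, Ftl1 and Sqstm1) and the lowest in both for 14 (Glrx5, Txn1, Txn2, Txnrd2, Gpx1, Prdx1, Prdx2, Prdx3, Prdx4, Sod2, Nqo1, Srxn1, Keap1 and Gsto1). Over all 14579 genes the shares were 24.8% and 28.8%. The part of Slc2a3, which was also highest in replicate 1 of both wild types, and of these library differences in the redox results was not tested.

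**Figure D5:**
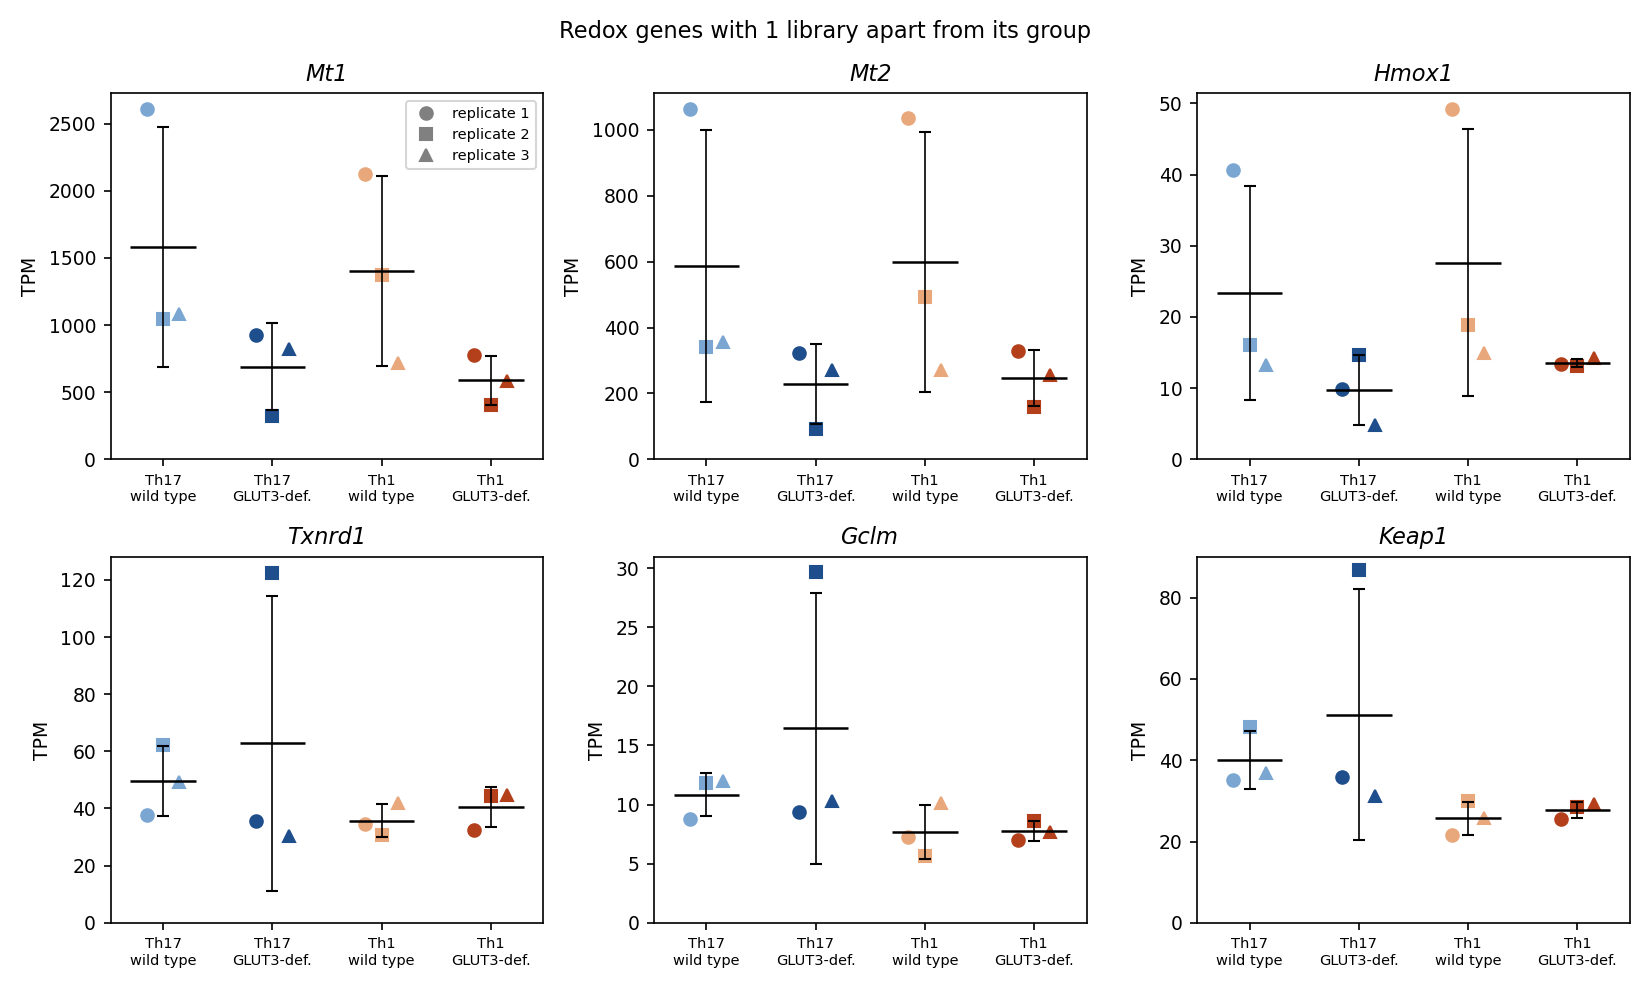
TPM by group of 6 redox genes in which 1 library lies apart, with 1 symbol per replicate and lines for the mean and SD of 3 libraries. Replicate 1 tops both wild-type groups for Mt1, Mt2 and Hmox1, and replicate 2 of GLUT3-deficient Th17 lies at 122, 29.7 and 86.7 TPM for Txnrd1, Gclm and Keap1.

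To ask whether the genotype difference itself differed between Th17 and Th1, the interaction was tested in 1 model of all 12 libraries. None of the 34 genes was called by limma, against 0.638% of all 14579 genes tested, and 2 of 34 had an unadjusted p under 0.05, against 6.38% of all genes; voom on reads called 0 as well. For Glrx the Th17 difference minus the Th1 difference was 0.82 ± 0.23 (SE; limma adjusted p = 0.242), and for Srxn1 it was -1.03 ± 0.39 (SE; limma adjusted p = 0.551). Without GLUT3-deficient Th17 replicate 2 the Srxn1 value was -1.34 and was called (limma adjusted p = 0.0425), the only gene of the 34 to be called in any of the 17 alternatives. Fth1, called in Th1 only, had a difference between lineages of -0.48 ± 0.30 (limma adjusted p = 1.00).

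Comparing the lineages in the same model, 1 of 34 genes was called in wild-type cells, against 3.63% of all genes. Glrx was lower in Th17 than in Th1 wild-type libraries, by -1.27 ± 0.16 on the log2 scale (SE; limma adjusted p = 0.000761), without overlap between 111, 122 and 100.1 and 239, 325 and 247 TPM, and this call held under all 17 alternatives. In GLUT3-deficient cells 1 of 34 genes was called, against 5.91% of all genes: Srxn1 was lower in Th17 than in Th1, by -1.15 ± 0.27 (SE; limma adjusted p = 0.0275), although wild-type cells of both lineages had overlapping Srxn1 levels. That call was lost without GLUT3-deficient Th17 replicate 1 or 3 or any 1 of the 3 GLUT3-deficient Th1 libraries (limma adjusted p from 0.0731 to 0.124). The lineage difference of Glrx in GLUT3-deficient cells, -0.45 ± 0.16, was not called (limma adjusted p = 0.153). The median over all genes of the Th17 minus Th1 difference was 0.14 in wild-type and 0.13 in GLUT3-deficient cells, beside 0.12 and 0.09 for the 34 genes, and median-of-ratios scaling moved the all-gene medians to -0.01 and -0.02. With that scaling the Glrx difference in wild type was -1.44 and the Srxn1 difference in GLUT3-deficient cells was -1.31, both called, and of all genes called the share higher in Th17 went from 51.0% to 36.3% in wild type and from 56.7% to 47.2% in GLUT3-deficient cells.

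The other genes of the same pathways, outside the 34, were counted by list. Of 25 other glutathione genes tested in Th17, 1 was called higher and 0 lower, and of 24 in Th1, 3 were called higher and 3 lower, or 4.00% and 25.0% of those tested against 7.30% and 31.3% of all genes. The median log2 differences were -0.02 and -0.15. Gstt1, a theta-class glutathione transferase, was the gene called in both, at 15.0, 15.2 and 10.3 TPM in wild-type and 254, 144 and 278 TPM in GLUT3-deficient Th17 and 99.7, 94.4 and 53.5 against 462, 319.8 and 386 TPM in Th1. The genotypes did not overlap in either lineage, and Gstt1 rose by 3.93 ± 0.31 (SE; limma adjusted p = 0.00153) in Th17 and by 2.26 ± 0.25 (SE; limma adjusted p = 0.000384) in Th1. In Th1, Gstt2 (0.71 ± 0.19, SE) and Chac1, which degrades glutathione (1.07 ± 0.31, SE), were also called higher, and the microsomal transferase Mgst3 was called lower (-1.14 ± 0.22, SE).

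Of 27 other thioredoxin-fold and methionine sulfoxide genes tested in each lineage, 1 was called higher in Th17, and 5 were called higher and 2 lower in Th1. These were 3.70% and 25.9% of the list, below the 7.30% and 31.3% of all genes. Txnip encodes the protein that binds thioredoxin and lowers glucose uptake, and its transcript is known to respond to glucose. It measured 28.8, 51.2 and 35.2 against 102, 184 and 82.5 TPM in Th17 and 19.1, 25.7 and 28.2 against 68.1, 87.5 and 74.6 TPM in Th1, without overlap, and rose by 1.61 ± 0.35 (SE; limma adjusted p = 0.0399) and 1.63 ± 0.18 (SE; limma adjusted p = 0.000435). Sesn2, a sestrin, was called higher in Th1 (1.09 ± 0.18, SE; limma adjusted p = 0.00228) and Msrb2, a mitochondrial methionine sulfoxide reductase, lower (-0.93 ± 0.17, SE; limma adjusted p = 0.00348).

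The NADPH that both chains consume comes from the pentose phosphate pathway, malic enzyme and isocitrate dehydrogenase. Of 11 such genes tested in Th17, 0 were called by limma, and 2 had an unadjusted p under 0.05, as did 25.0% of all genes. In Th1, 2 of 12 were called higher and 1 lower, 25.0% of the list against 31.3% of all genes. Me1, the cytosolic malic enzyme, rose from 2.33, 1.47 and 1.37 to 8.71, 7.32 and 5.60 TPM in Th1 (1.59 ± 0.21, SE; limma adjusted p = 0.000844) and was under the filter in Th17. Idh1, the cytosolic isocitrate dehydrogenase, rose from 6.95, 10.7 and 12.6 to 26.5, 22.7 and 26.4 TPM (1.27 ± 0.21, SE; limma adjusted p = 0.00244), and Pgls of the pentose phosphate pathway fell (-0.66 ± 0.18, SE; limma adjusted p = 0.0244). All 3 separated the genotypes of Th1 without overlap.

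Of the NRF2 partners, repressors and further targets, 0 were called higher and 1 lower of 17 tested in Th17, and 4 higher and 1 lower of 18 in Th1, or 5.88% and 27.8% of the list against 7.30% and 31.3% of all genes. The median log2 differences were 0.27 and 0.30. Ephx1, the microsomal epoxide hydrolase, fell in both, from 21.4, 16.9 and 15.5 to 4.91, 5.94 and 5.91 TPM in Th17 (-1.51 ± 0.25, SE; limma adjusted p = 0.0176) and from 39.7, 26.8 and 27.5 to 7.80, 6.74 and 11.4 TPM in Th1 (-1.75 ± 0.23, SE; limma adjusted p = 0.000801), without overlap. The carbonyl reductase Cbr3 (1.61 ± 0.21, SE), Blvrb (0.84 ± 0.25, SE) and Abhd4 (0.61 ± 0.18, SE) were called higher in Th1.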

How the data were processed

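RNA from 12 libraries was amplified with SMART-Seq v4 from 5 ng of total RNA, tagmented with Nextera XT and sequenced single-end at 75 nt, per the labels' protocols, so strand is not marked. STAR 2.7.2b, featureCounts 1.6.4, DESeq2 1.24.0, cutadapt, bcl2fastq 2.20.0.422 and the build GRCm38.p6 are listed in the submitters' processing notes; the role of each is not given in the sources used here. The authors deposited 1 table per lineage of TPM values, with gene coordinates and exon length. Each library sums to the same total, and the scaling is within a library, so levels of both tables were set side by side. TPM times exon length gave whole reads within 0.02 for 100% of values, and these recovered reads were used only for depth and for voom.

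A gene entered a fit if 3 or more of its libraries reached 1 TPM. The test was limma 3.58.1 (R 4.3.3) with a mean-variance trend on log2 of TPM plus a pseudocount of 1, two-sided, with Benjamini-Hochberg adjustment over all genes tested and a threshold of 0.05. Fold changes are on that scale, which understates changes of low genes. Genotypes were compared within the 6 libraries of a lineage, and the interaction and lineage differences in a model of 4 group means over 12 libraries. The script was tested on simulated data. No replicates agreed within sampling noise (chi-square per gene at least 13.1).

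The 34 genes, the other gene lists and the markers were chosen with earlier results of these data known. All 34 genes are accounted for, with every library given for the called genes and the leading gene of each role; of the other lists, at most the 4 called genes with the smallest adjusted p per genotype comparison are named. Alternatives were a pseudocount of 5, no filter, median-of-ratios scaling, the replicate number as a block, all 12 libraries in 1 model, each library left out, and, added after seeing the data, voom on the recovered reads. Replicate numbers come from the sample titles. Deviations of same-numbered libraries from their group means were correlated, against a threshold of 0.1. All pairs passed it between Th17 wild type and GLUT3-deficient (lowest 0.137) and between Th17 and Th1 wild type (lowest 0.256). Not all did between Th1 wild type and GLUT3-deficient (lowest -0.07) or between the GLUT3-deficient lineages (lowest -0.19). Pairs with different numbers reached 0.105, 0.281, 0.160 and 0.221 in the same order, so a pairing by number was not settled. Blocked values stand beside Th17 results that they change. Promoter windows came from RefSeq for 30 of the 34 genes.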

Additional observations from a re-analysis of the deposited data

How the results depend on the processing

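No log2 difference of a called redox gene changed sign under any alternative. Of 34 redox genes, 5 were called in Th17; the count was 1 with no filter on low values, 3 with median-of-ratios scaling and 9 with all 12 libraries in the model, and ranged from 1 to 6 when 1 library was left out. In Th1, 12 were called, 7 with all 12 libraries in the model and 7 to 14 with 1 library left out. The interaction count of 0 became 0 to 1, the wild-type lineage count of 1 became 1 to 3 and the GLUT3-deficient lineage count of 1 became 0 to 3 with 1 library left out; the last was 2 with median-of-ratios scaling and 2 with voom on reads. With the replicate block the counts were 7 in Th17, where Mt1 and Mt2 were gained, and 15 in Th1, where Gpx1, Nqo1 and Mt2 were gained. Not all same-numbered pairs of Th1 libraries passed the pairing threshold of 0.1 (lowest correlation -0.07). The block changed no other count. The cause of these changes was not tested. Over all genes, the calls in Th17 went from 1009 to 2933 with all 12 libraries in the model and to between 109 and 2158 with 1 library left out, the highest without GLUT3-deficient replicate 2. Those in Th1 went from 4220 to 2568 and to between 2594 and 4587. With 1 library left out the interaction calls went from 93 to between 21 and 171, and the lineage calls from 529 to between 309 and 1582 in wild type and from 861 to between 449 and 1219 in GLUT3-deficient cells. The planned edgeR test on reads was not run, because the deposited unit is TPM. With 3 libraries a group, the Th17 calls other than Glrx rest on which libraries enter, and genes near 1 TPM such as Nqo1 are measured on few reads.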

Other observations

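Beside ferritin and the metallothioneins stand the genes that move iron and zinc. Of 14 iron genes tested in Th17, 0 were called by limma and 3 had an unadjusted p under 0.05, against 7.30% and 25.0% of all genes. Of 15 in Th1, 3 were called higher and 1 lower, 26.7% against 31.3% of all genes. In Th1, Ireb2, an iron-sensing regulator of ferritin translation, measured 2.70, 1.46 and 2.62 TPM in wild-type and 5.14, 4.40 and 5.53 TPM in GLUT3-deficient libraries and was called higher (0.90 ± 0.20, SE; limma adjusted p = 0.00973), as were Fbxl5 (0.75 ± 0.22, SE) and Lcn2 (0.76 ± 0.23, SE), while the iron chaperone Pcbp2 was called lower (-0.49 ± 0.15, SE). Of 16 zinc and metal genes tested in Th17, 0 were called by limma and 4 had an unadjusted p under 0.05, the same share as the 25.0% of all genes. Of 17 in Th1, 4 were called higher and 1 lower, 29.4% against 31.3% of all genes. The importer Slc39a8, which brings zinc and manganese into the cell, measured 2.59, 2.15 and 3.41 against 11.1, 9.98 and 11.8 TPM in Th1 and 2.45, 2.96 and 3.43 against 11.4, 52.2 and 12.03 TPM in Th17, without overlap in either. It was called higher in Th1 (1.70 ± 0.18, SE; limma adjusted p = 0.000339) and had a limma adjusted p of 0.0508 in Th17, where GLUT3-deficient replicate 2 was the highest. The zinc importer Slc39a6 (1.13 ± 0.20, SE) and the copper transporter Atp7a (1.44 ± 0.29, SE) were also called higher in Th1, and the copper chaperone Atox1 lower (-0.60 ± 0.19, SE).

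Of 10 genes of oxidant sources tested in each lineage, 0 were called in Th17 by limma, with 4 at an unadjusted p under 0.05, and 3 were called higher in Th1. The shares over all genes were 7.30% called and 25.0% at an unadjusted p under 0.05 in Th17, and 31.3% called in Th1. The 3 were Xdh, the xanthine oxidoreductase, at 8.97, 10.3 and 7.44 against 19.7, 17.6 and 18.9 TPM (1.00 ± 0.17, SE; limma adjusted p = 0.00227), Ero1b, an oxidase of protein folding in the endoplasmic reticulum (1.05 ± 0.18, SE), and Rac2, a GTPase of the NADPH oxidase (0.67 ± 0.14, SE).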
